A study of Mus musculus with 6 samples.

Results

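Infarct macrophages were examined for interleukin-10 (IL-10), its receptor and a set of genes known to respond to it. The set was a list of 9 genes matched by symbol: the ligand gene Il10, the receptor genes Il10ra and Il10rb, the receptor chain genes Il4ra and Il13ra1, and the response genes Bcl3, Nfil3, Sbno2 and Zfp36. All 9 were found in the count table, which lists 54532 genes and has a read for 27687 of them, and all 9 passed the expression filter that left 14522 genes to test. The list used no measured value of these libraries, but it was drawn up with earlier results of the same data known.

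The data were 6 RNA-seq libraries of cardiac macrophages from C57BL/6 mice, 3 from ITGA5 fl/fl and 3 from Myα5KO animals. Both groups carried floxed alleles of the integrin α5 gene, and only Myα5KO mice also carried Cre recombinase under the lysozyme M promoter, which acts in neutrophils and monocytes as well as in macrophages. All mice were 12 weeks old, had the left anterior descending coronary artery tied without reperfusion and were studied 7 days later, with the control mice taken from the same litters. Cells of individual hearts were depleted of Ly6G+ neutrophils and then selected for CD11b on magnetic columns, so the libraries hold all Ly6G- CD11b+ cells and not macrophages alone.

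IL-10 is a cytokine that macrophages both secrete and sense. It binds a receptor made of the chains IL10RA and IL10RB, activates the kinases JAK1 and TYK2 and the transcription factor STAT3, and raises a set of proteins that restrain inflammatory genes. In the healing heart it is known as a signal that accompanies the change from inflammation to repair. IL4RA and IL13RA1 together form a receptor for IL-4 and IL-13 that signals through STAT6, and IL-10 is known to raise IL4RA on macrophages.

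Total counts lay between 15424451 and 18419287 per library, with 21446 to 22338 genes detected. Itga5 was at 607 ± 43.2 CPM (counts scaled to a common library size by the TMM method) in ITGA5 fl/fl and at 48.7 ± 1.48 CPM in Myα5KO libraries (SD, n = 3 each), 8.02% of control, and each Myα5KO library was below each control. Macrophage genes were abundant in both groups, with Csf1r at 2188 and 2153 CPM and Cd68 at 896 and 860 CPM. Lyz2, the lysozyme M gene, was at 53.0% of the control level.

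Among the genes of the set, Il10, Bcl3 and Sbno2 fell in Myα5KO macrophages and no gene rose. Of 18 alternative settings of the analysis, described below, Il10 kept its call in 17, Bcl3 in 10 and Sbno2 in 7. Il10 fell to 46.0% of the control level, whereas both chains of its receptor differed by less than the spread between libraries. Of the response genes, Bcl3 and Sbno2 were at 80.8% and 82.7% of control, Nfil3 did not pass the test, and Zfp36 lay in the opposite direction without passing it. A gene was called when its p from the quasi-likelihood test of edgeR, adjusted over all 14522 tested genes by the Benjamini-Hochberg method, was 0.05 or less. By this rule 3 of 9 genes were lower, beside 5.19% of all tested genes, and 0 of 9 were higher, beside 3.56%. At an unadjusted p under 0.05, 1 gene (Il13ra1) was higher, and DESeq2 called 0 higher and 4 lower. With scaling by library size alone, which counted 518 lower and 1212 higher genes in place of 754 and 517, the set held 1 lower gene (Il10) and 1 higher gene (Il13ra1). In 5 of 9 genes (Il10, Il4ra, Bcl3, Nfil3 and Sbno2) all 3 Myα5KO libraries lay below all 3 ITGA5 fl/fl libraries, which was so for 13.8% of tested genes, and in 0 of 9 they all lay above, against 14.9%. The median log2 fold change of the 9 genes was -0.12, beside 0.01 over all tested genes.

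**Figure D1:**
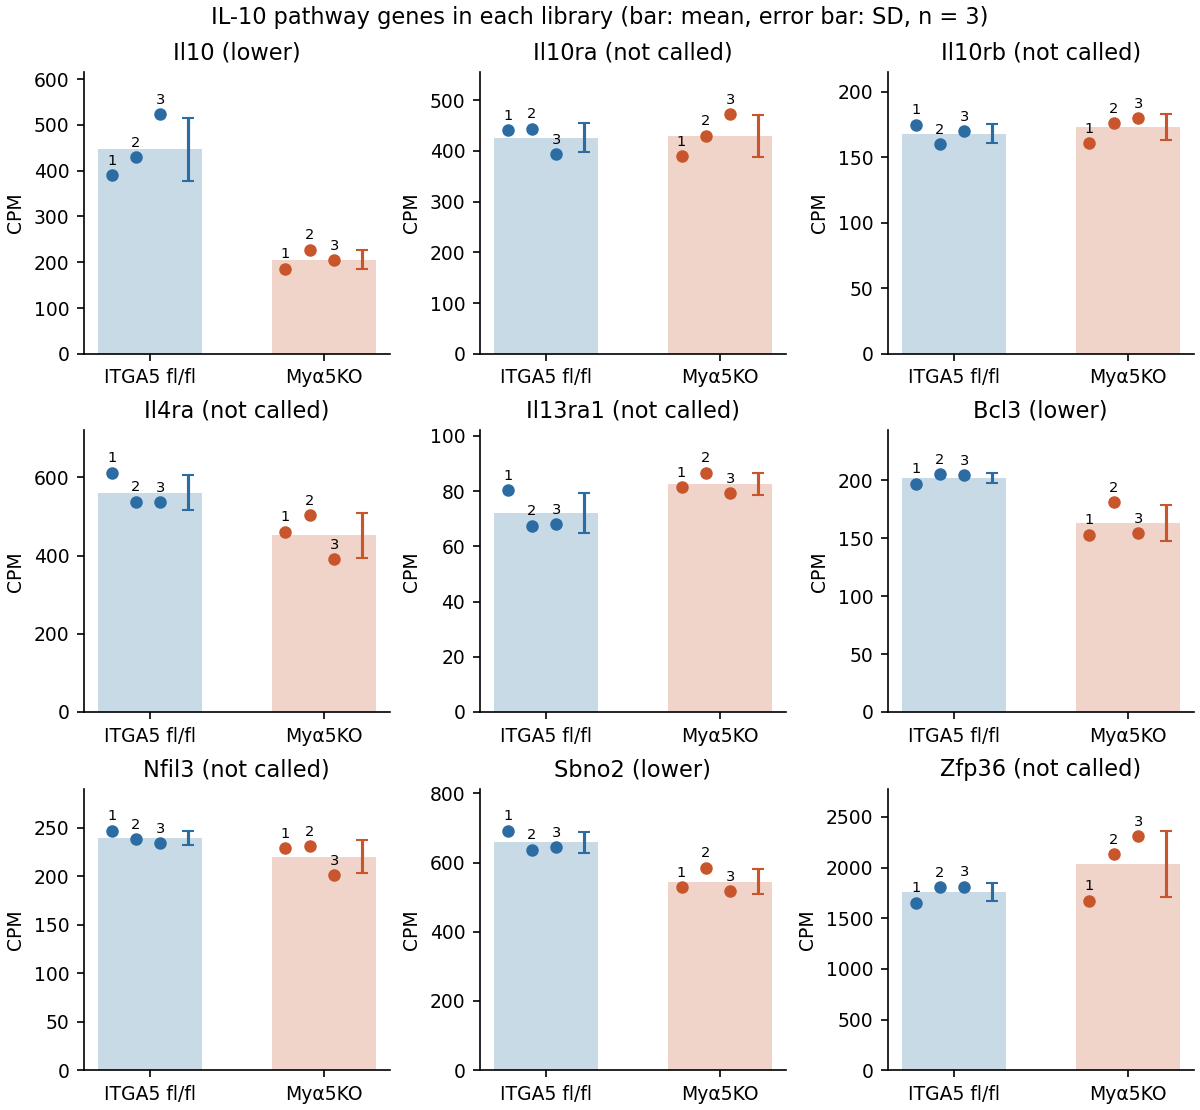
CPM of each of the 9 genes (vertical axes, each starting at 0) in the ITGA5 fl/fl and Myα5KO libraries, with numbered points for the libraries, bars for the means and error bars for the SD (n = 3). The Il10 points of Myα5KO lie between 186 and 227 CPM, all below the lowest control library at 389.6 CPM, whereas the points of Il10ra and Il10rb overlap.

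Il10 (ENSMUSG00000016529, GRCm38 chr1:131019845-131024974, plus strand) encodes the cytokine itself. Its level was 389.6, 429 and 523 CPM in ITGA5 fl/fl replicates 1, 2 and 3 and 186, 227 and 204 CPM in Myα5KO replicates 1, 2 and 3, from 3490 to 9190 counts per library. The groups did not overlap, and the highest Myα5KO library was well under the lowest control. The mean fell from 447 ± 68.5 to 206 ± 20.8 CPM (SD, n = 3 each). On the log2 scale it changed by -1.12 (SE 0.10, 95% interval -1.35 to -0.90, edgeR adjusted p = 5.6e-05). The value stayed between -1.21 and -0.99 when each library was left out in turn. Among all genes with a count, Il10 held rank 124 by mean FPKM (reads scaled for gene length and library size, as deposited) in ITGA5 fl/fl and rank 293 in Myα5KO macrophages. Il10 is also among the genes that the study picked from these libraries, so its direction is not independent evidence. In bulk libraries, fewer cells that make a transcript and less of it per cell cannot be told apart.

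The Il10 transcript carries short AU-rich elements in its 3′ UTR, of the kind bound by tristetraprolin, the product of Zfp36, which promotes the decay of cytokine mRNAs. In the principal GENCODE M21 transcript the 3′ UTR is 706 bases long and holds TATTTAT 4 times and the longer TTATTTATT, which contains it, 0 times. The 4 sites are shown because Il10 is the gene with the largest change in the set and Zfp36 is another of its genes. Each is printed 5′ to 3′ on the plus strand of GRCm38 with TATTTAT in capitals, from chr1:131024385-131024413, chr1:131024418-131024446, chr1:131024481-131024509 and chr1:131024827-131024855 in that order.
Il10 3′ UTR site 1: tctctccgaaaTATTTATtacctctgata
Il10 3′ UTR site 2: agttcccattcTATTTATtcactgagctt
Il10 3′ UTR site 3: taattttacagTATTTATtatttttaacc
Il10 3′ UTR site 4: ggccagtttgtTATTTATaaccacctaaa
In comparison, TATTTAT was present in 28.4% of the 3′ UTRs of 12574 tested protein-coding genes, which have a median length of 1024 bases. Among the 2569 3′ UTRs of 500 to 1000 bases it was present in 20.3%, and 2 or more copies were present in 4.01%. The longer TTATTTATT was present in 7.34% of all these 3′ UTRs and in 4.75% of those of 500 to 1000 bases. The letters describe the sequence only, and binding was not measured.

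Il10ra (ENSMUSG00000032089, chr9:45253837-45269149, minus strand) encodes the chain that binds IL-10. It was at 441, 444 and 393 CPM in ITGA5 fl/fl and at 389, 429.8 and 472 CPM in Myα5KO replicates 1, 2 and 3. The libraries of both groups were interleaved. The means of 426 ± 28.6 and 430 ± 41.6 CPM gave a log2 fold change of 0.01 (SE 0.08, 95% interval -0.16 to 0.19, edgeR adjusted p = 0.944).

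Il10rb (ENSMUSG00000022969, chr16:91406164-91425834, plus strand) encodes the other receptor chain, which IL-10 shares with IL-22 and the interferons lambda. It was at 175, 160.3 and 170.1 CPM in ITGA5 fl/fl and at 161, 176 and 180.1 CPM in Myα5KO replicates 1, 2 and 3, again with overlap. The log2 fold change was 0.04 (SE 0.07, 95% interval -0.11 to 0.18, edgeR adjusted p = 0.799). For both chains the interval of the difference excluded a change of the size seen for Il10.

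Il4ra (ENSMUSG00000030748, chr7:125552120-125579474, plus strand) encodes the chain common to both IL-4 receptors. It was at 612, 537 and 536 CPM in ITGA5 fl/fl and at 461, 503 and 389.8 CPM in Myα5KO replicates 1, 2 and 3. All Myα5KO libraries were below the controls, at a mean of 80.4% of them. The difference was -0.31 on the log2 scale (SE 0.09, 95% interval -0.51 to -0.12), and the edgeR adjusted p of 0.0507 lay just outside the threshold. DESeq2 placed it inside (adjusted p = 0.0118), as did edgeR without Myα5KO replicate 2 (log2 fold change -0.40, adjusted p = 0.0298). In all, Il4ra was called in 7 of 18 alternatives. Those that missed included edgeR with library-size scaling (-0.23, adjusted p = 0.102) and edgeR without Myα5KO replicate 3 (-0.22, adjusted p = 0.102).

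Il13ra1 (ENSMUSG00000017057, chrX:36112110-36171259, plus strand) encodes the chain that joins IL4RA in the receptor for IL-13. It was at 80.4, 67.5 and 68.1 CPM in ITGA5 fl/fl and at 81.5, 86.7 and 79.2 CPM in Myα5KO replicates 1, 2 and 3. Only the first control library reached the Myα5KO range. The log2 fold change was 0.20 (SE 0.08, 95% interval 0.03 to 0.36, edgeR adjusted p = 0.141), and without ITGA5 fl/fl replicate 1 it was 0.28 (adjusted p = 0.0407).

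The relation between ligand and receptor was also taken within each library as a ratio of FPKM values, which no scaling between libraries can move. The ratio of Il10 to Il10ra was 2.36, 2.58 and 3.55 in ITGA5 fl/fl, against 1.28, 1.41 and 1.15 in Myα5KO replicates 1, 2 and 3. The groups were apart, with a log2 difference of -1.13 (exact two-sided permutation test, p = 0.1, the smallest that 3 against 3 libraries allow, and 0.125 adjusted over 5 ratios). The ratio of the receptor chains Il10ra to Il10rb was 2.76 ± 0.25 and 2.71 ± 0.125 (SD, n = 3 each, exact permutation p = 0.8).

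The ratio of Il4ra to Il13ra1 was 4.71, 4.92 and 4.86 in ITGA5 fl/fl, against 3.50, 3.59 and 3.04 in Myα5KO replicates 1, 2 and 3. These groups did not overlap either, with a log2 difference of -0.52 (exact permutation p = 0.1, adjusted 0.125). The ratios of Il4ra to Il10ra and of Il10 to Zfp36 differed by -0.33 and -1.32 on the log2 scale, each with the same exact p of 0.1. Since 0.1 is the floor of this design, none of the 5 ratios could pass a threshold of 0.05.

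**Figure D2:**
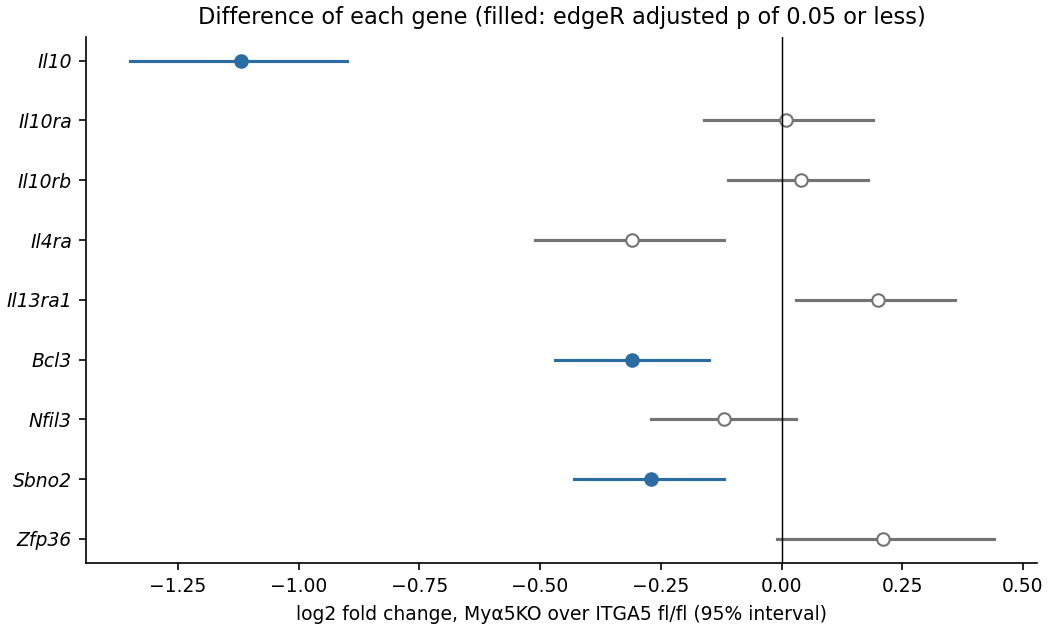
Log2 fold change of each gene, Myα5KO over ITGA5 fl/fl (horizontal axis), with its 95% interval as a line and filled points for an edgeR adjusted p of 0.05 or less. Il10 stands apart at -1.12, Bcl3 and Sbno2 are filled at -0.31 and -0.27, and the intervals of Il10ra, Il10rb, Nfil3 and Zfp36 include 0.

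Among the response genes, Bcl3 (ENSMUSG00000053175, chr7:19808462-19822770, minus strand) encodes a nuclear IκB protein that binds the NF-κB subunits p50 and p52. It was at 197, 205 and 204 CPM in ITGA5 fl/fl and at 153, 181 and 154 CPM in Myα5KO replicates 1, 2 and 3. The controls were close together and all Myα5KO libraries were lower, at a mean of 80.8%. Bcl3 fell by 0.31 on the log2 scale (SE 0.07, 95% interval -0.47 to -0.15, edgeR adjusted p = 0.0214). The call was lost without ITGA5 fl/fl replicate 2 (-0.30, adjusted p = 0.0845), ITGA5 fl/fl replicate 3 (-0.30, 0.079) or Myα5KO replicate 1 (-0.27, 0.0618), and with library-size scaling (-0.23, 0.0551). It was also lost in the limma fits on FPKM values (limma adjusted p 0.0681 to 0.169) and at an adjusted p of 0.01.

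Sbno2 (ENSMUSG00000035673, chr10:80056992-80105571, minus strand) encodes strawberry notch homolog 2, a corepressor induced by STAT3. It was at 692, 637 and 644 CPM in ITGA5 fl/fl and at 529, 585 and 518 CPM in Myα5KO replicates 1, 2 and 3. The groups did not overlap, and the Myα5KO mean was 82.7% of control. Sbno2 fell by 0.27 on the log2 scale (SE 0.07, 95% interval -0.43 to -0.12, edgeR adjusted p = 0.0326). Its call held without Myα5KO replicate 2 and was lost without each of the other 5 libraries, with values from -0.30 to -0.24 (adjusted p 0.0566 to 0.112).

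Nfil3 (ENSMUSG00000056749, chr13:52967209-52981073, minus strand) encodes a basic leucine zipper repressor known to mediate the effect of IL-10 on Il12b. It was at 247, 238 and 234 CPM in ITGA5 fl/fl and at 229, 231 and 201 CPM in Myα5KO replicates 1, 2 and 3. The groups were apart by a narrow margin, and the log2 fold change of -0.12 did not pass the test (SE 0.07, 95% interval -0.27 to 0.03, edgeR adjusted p = 0.337).

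Zfp36 (ENSMUSG00000044786, chr7:28376784-28380253, minus strand) encodes tristetraprolin. It was at 1653, 1803 and 1810.4 CPM in ITGA5 fl/fl and at 1670.3, 2129 and 2307 CPM in Myα5KO replicates 1, 2 and 3. The first Myα5KO library lay within the control range and the other two above it. The log2 fold change was 0.21 (SE 0.10, 95% interval -0.01 to 0.44, edgeR adjusted p = 0.239), and without Myα5KO replicate 1 it was 0.33 (adjusted p = 0.0256). That fit was the only 1 of 18 alternatives to call Zfp36. Without Myα5KO replicate 3 the value was 0.11 (edgeR adjusted p = 0.514).

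The 3′ UTR of the Zfp36 transcript, 774 bases long, holds TATTTAT 3 times and TTATTTATT 1 time. They are shown beside those of Il10 because tristetraprolin is known to act on its own mRNA. The stretches are chr7:28376958-28376987 and chr7:28376926-28376954 of GRCm38, printed 5′ to 3′ on the minus strand with TATTTAT in capitals.
Zfp36 3′ UTR site 1: ccttTATTTATgacgacttTATTTATtgta
Zfp36 3′ UTR site 2: agattttatagTATTTATatatattgggt
Il10ra holds TATTTAT 3 times, each within TTATTTATT, in a 3′ UTR of 1693 bases, and Sbno2 holds TATTTAT 1 time in 424 bases. The 3′ UTRs of Il10rb, Il4ra, Il13ra1, Bcl3 and Nfil3 hold neither motif.

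The promoters of the response genes were searched for TTCNNNGAA, the core of STAT binding sites, and for TTCCNGGAA, a narrower form whose matches are all matches of the first. Both motifs read the same on either strand. RefSeq start sites on GRCm38.p6, each with 250 bases before and 50 after the start, were found for Il4ra, Il13ra1, Bcl3, Nfil3, Zfp36 and, with 3 starts, Sbno2. The table used here held no entry for Il10, Il10ra and Il10rb. TTCNNNGAA was present in 8.3% and TTCCNGGAA in 1.15% of all 32851 promoters of this length. Of the set, Zfp36 held TTCTGCGAA 17 bases before its start, the second Sbno2 start held TTCCCGGAA 24 bases before it and the third start held TTCGCAGAA 26 bases before it. The first Sbno2 start and the promoters of Bcl3, Il4ra, Il13ra1 and Nfil3 held 0 matches.

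The promoters of Bcl3 and Sbno2, which fell, and of Zfp36, which did not pass the test, are printed 5′ to 3′ on the minus strand with any match in capitals. They are Bcl3 (chr7:19822706-19823005), the second start of Sbno2 (chr10:80101138-80101437) and Zfp36 (chr7:28379179-28379478).
Bcl3 promoter: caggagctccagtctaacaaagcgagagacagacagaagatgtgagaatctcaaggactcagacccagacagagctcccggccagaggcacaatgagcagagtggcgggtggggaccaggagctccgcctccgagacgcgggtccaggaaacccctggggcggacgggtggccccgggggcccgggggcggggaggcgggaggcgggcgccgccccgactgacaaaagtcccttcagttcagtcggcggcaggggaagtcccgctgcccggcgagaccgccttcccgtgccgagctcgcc
Sbno2 promoter, second start: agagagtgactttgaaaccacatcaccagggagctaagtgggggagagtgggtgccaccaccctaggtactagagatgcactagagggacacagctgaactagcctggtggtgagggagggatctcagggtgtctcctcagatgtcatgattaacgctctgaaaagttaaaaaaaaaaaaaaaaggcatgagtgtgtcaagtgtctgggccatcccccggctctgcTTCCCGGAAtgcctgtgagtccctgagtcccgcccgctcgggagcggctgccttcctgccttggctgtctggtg
Zfp36 promoter: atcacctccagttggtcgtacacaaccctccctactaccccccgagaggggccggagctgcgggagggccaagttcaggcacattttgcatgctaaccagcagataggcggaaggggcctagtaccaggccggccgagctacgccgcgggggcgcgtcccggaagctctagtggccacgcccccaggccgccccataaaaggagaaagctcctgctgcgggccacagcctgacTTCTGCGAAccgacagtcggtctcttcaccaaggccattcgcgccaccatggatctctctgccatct
Which Sbno2 start these cells used cannot be told from counts per gene, and a match is a description of the letters, not a measured site.

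Levels between genes were compared per length. By FPKM the order in ITGA5 fl/fl macrophages was Zfp36 (504 ± 24.6), Il10 (340 ± 52.3), Il10ra (121), Nfil3 (118), Il4ra (93.1), Bcl3 (81.2), Sbno2 (61.1), Il10rb (44.0) and Il13ra1 (19.3). The ranges of Il10ra and Nfil3 overlapped, and all other neighbours in this order were apart. In Myα5KO macrophages the order was the same, with Zfp36 at 582 ± 90.3 and Il10 at 156 ± 15.9 FPKM, and the ranges of Il4ra (74.7) and Bcl3 (65.4) then overlapped too.

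This order depends on the gene length. The deposited length of Sbno2 is 2.21 times, and that of Il10rb 2.06 times, the length of the principal GENCODE M21 transcript, whereas those of Il10, Il10ra, Il13ra1 and Nfil3 equal it. By CPM per kilobase of that transcript, an alternative chosen after the data were seen, Sbno2 rose in the order to 136, above Il10ra at 122, and Il10rb was at 91.0 in ITGA5 fl/fl. Zfp36 (629), Il10 (341) and Il13ra1 (19.4) kept their places at the top and the bottom under both lengths.

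**Figure D3:**
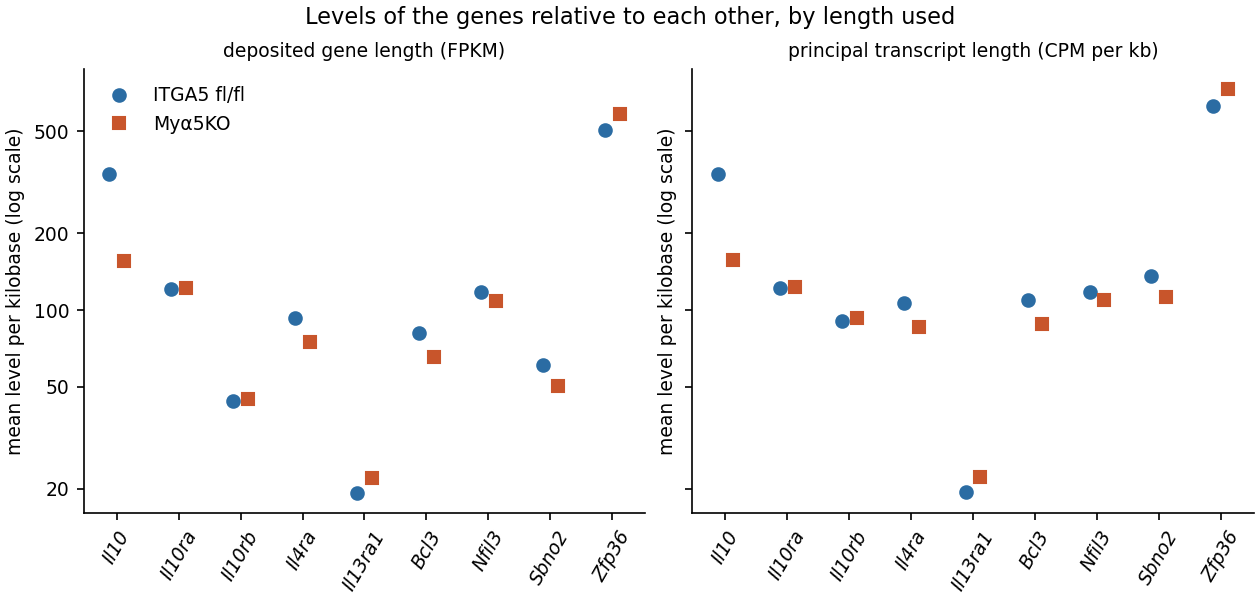
Mean level of each gene per kilobase (log scale), with the deposited gene length on the left and the principal transcript length on the right, as circles for ITGA5 fl/fl and squares for Myα5KO. Zfp36 is highest and Il13ra1 lowest on both sides, while Sbno2 moves from 61.1 to 136 in ITGA5 fl/fl with the choice of length.

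The rest of the pathway was described with 8 further lists of 83 genes outside the set, written by known role. Of the 70 that were tested, 17 were lower and 10 higher, beside 5.19% lower and 3.56% higher among all tested genes, with a median log2 fold change of -0.12 beside 0.01. With library-size scaling the split was 12 lower and 14 higher.

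Among 8 genes of IL-10 signal transduction, 1 fell (5.19% of all tested genes), 3 rose (3.56%) and 4 were not called (median 0.06). Stat3, the main transcription factor below the receptor, fell from 494 ± 23.6 to 409 ± 20.6 CPM (log2 fold change -0.27, SE 0.07, edgeR adjusted p = 0.028). Ptpn6, which encodes the phosphatase SHP-1, rose from 177 to 256 CPM (0.53, adjusted p = 0.00043) and held its call in all 6 fits that left out 1 library. Tyk2, a receptor kinase, rose from 78.7 to 92.0 CPM (0.23, adjusted p = 0.0393), a call that DESeq2 did not make and that was kept in 1 of 6 such fits, the one without Myα5KO replicate 3. The Stat3 call was kept in 2 of 6, those without Myα5KO replicate 1 or 3, with values from -0.31 to -0.23.

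The feedback inhibitor Socs3, a classical target of STAT3, was at 875, 853 and 872 CPM in ITGA5 fl/fl and at 701, 796 and 742 CPM in Myα5KO replicates 1, 2 and 3. The groups did not overlap, and the difference of -0.22 did not pass the test (edgeR adjusted p = 0.076). Jak1, the other receptor kinase, was at 332 and 309.8 CPM with overlap (-0.10, adjusted p = 0.438), and the lipid phosphatase gene Inpp5d at 538 and 467 CPM (-0.21, adjusted p = 0.109).

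Of 9 further genes known to be raised by IL-10 in macrophages, 5 fell and 1 rose (median -0.29, the lowest of the lists), where 5.19% of all tested genes fell and 3.56% rose. Hmox1, which encodes heme oxygenase-1, fell from 2225 ± 389.5 to 1314 ± 135 CPM (-0.76, SE 0.11, adjusted p = 0.00143) and Tnfrsf1b, a TNF receptor gene, from 1509.6 to 999 CPM (-0.60, adjusted p = 0.00104). Ddit4, an inhibitor of mTOR complex 1, fell from 49.2 to 32.9 CPM (-0.58, adjusted p = 0.00124). These 3 kept their calls in all fits that left out 1 library. Arg2 (-0.48) and the repressor gene Etv3 (-0.29) fell with adjusted p of 0.0267 and 0.0472. The Arg2 call was kept only without Myα5KO replicate 2, and the Etv3 call only without Myα5KO replicate 2 or ITGA5 fl/fl replicate 3. The receptor gene Fcgr1 rose from 195 to 235 CPM (0.27, adjusted p = 0.0215), kept only without Myα5KO replicate 1 or 3. Il1rn and Cd163 had values of -0.24 and 0.20 and were not called.

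Of 12 genes that IL-10 is known to repress, 11 were tested, 3 fell (all tested genes: 5.19%), 1 rose (3.56%) and 7 were not called (median -0.25). Il1a fell from 192 ± 54.1 to 76.6 ± 4.65 CPM (-1.33, SE 0.15, adjusted p = 0.000272) and Il6 from 49.2 ± 12.8 to 25.5 ± 4.84 CPM (-0.95, SE 0.17, adjusted p = 0.0039). Il1b fell from 1881 to 1540 CPM (-0.29, adjusted p = 0.0359), a call kept only without Myα5KO replicate 2. Like Il10, these 3 cytokine genes are among those the study picked from these libraries. Cxcl10, a chemokine gene induced by interferon, rose from 71.9 to 94.7 CPM (0.39, adjusted p = 0.0228), and lost its call without ITGA5 fl/fl replicate 1 (0.28) or Myα5KO replicate 2. Tnf (-0.25), Ptgs2 (-0.32), Ccl3 (0.38) and Ccl4 (0.42) were not called.

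**Figure D4:**
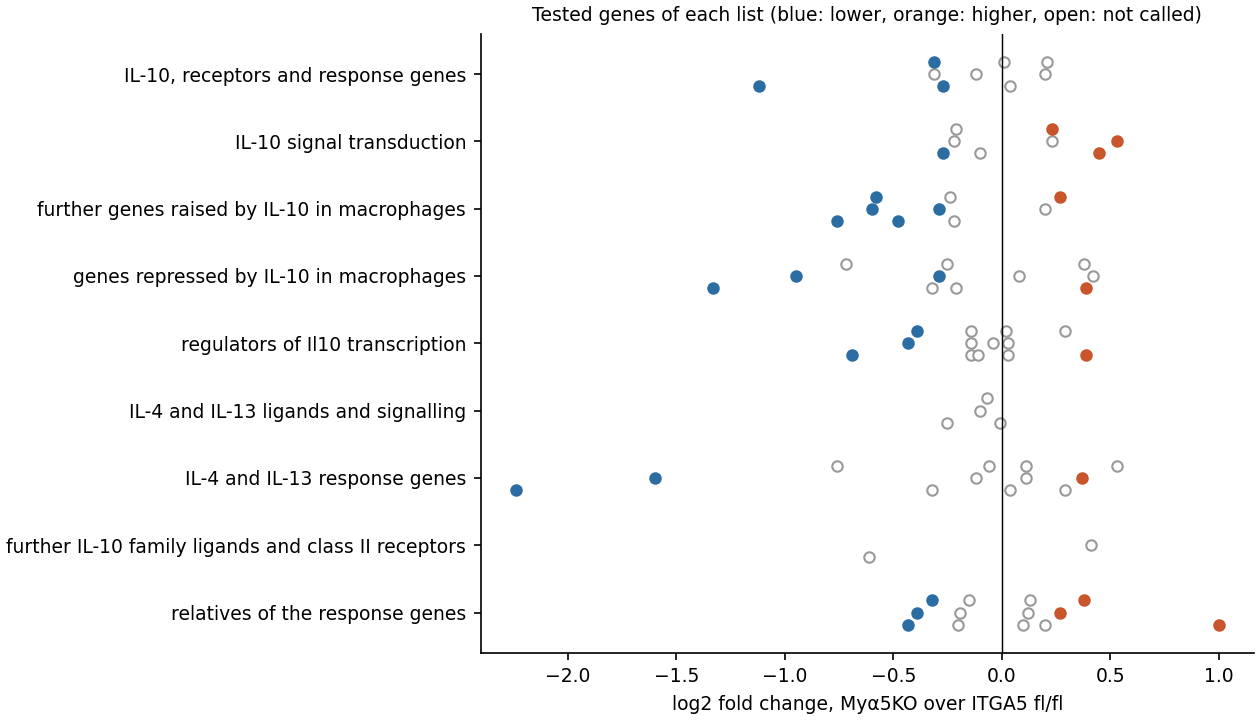
Log2 fold change, Myα5KO over ITGA5 fl/fl (horizontal axis), of every tested gene of the set and of the 8 further lists (1 row each), with blue points for genes called lower, orange for higher and open points for those not called. In the row of genes raised by IL-10, 5 of 9 points are blue and 1 is orange, and the row of IL-4 and IL-13 signalling holds open points only.

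Of 13 genes that regulate Il10 transcription, 3 fell (5.19% over all tested genes), 1 rose (3.56%) and 9 were not called (median -0.11). Nfkb1, which encodes the p50 subunit of NF-κB and supports Il10 transcription, fell from 687 ± 26.5 to 427 ± 49.4 CPM (-0.69, SE 0.08, adjusted p = 0.000359). Bhlhe40, known as a repressor of Il10, also fell, from 459.8 ± 9.95 to 342 ± 10.3 CPM (-0.43, SE 0.06, adjusted p = 0.00143). Maf, an activator of Il10, rose from 166 ± 6.63 to 218 ± 8.93 CPM (0.39, SE 0.07, adjusted p = 0.00296). These 3 kept their calls in all fits that left out 1 library. Prdm1, which encodes BLIMP-1, fell from 161 to 122 CPM (-0.39, adjusted p = 0.0383), kept only without Myα5KO replicate 1 or 2. Rela, the p65 subunit, was at 164 and 149 CPM (-0.14, adjusted p = 0.251).

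Of 6 genes for IL-4 and IL-13 and their signalling, 4 were tested and 0 were called by edgeR or DESeq2, nor did any reach an unadjusted p under 0.05. Stat6, the transcription factor below the IL-4 receptor, was at 250.3 and 238 CPM (-0.07, adjusted p = 0.601), and Il2rg, the common gamma chain, at 72.7 and 72.1 CPM (-0.01, adjusted p = 0.942). The cytokine genes were near the limit of detection, with Il4 at 1.51 and 1.27 CPM and Il13 at 0.118 and 0.107 CPM.

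Among 12 genes known to respond to IL-4 or IL-13, 2 fell (5.19% over all tested genes), 1 rose (3.56%) and 9 were not called (median -0.01). Arg1 was at 101, 592 and 291 CPM in ITGA5 fl/fl and at 127, 102 and 95.1 CPM in Myα5KO replicates 1, 2 and 3. The controls varied several-fold and the first of them lay within the Myα5KO range. The Arg1 fold change was -1.60 (SE 0.40, adjusted p = 0.0261), and the call was lost in the fits without ITGA5 fl/fl replicate 2 (-0.86) or 3 (-1.68), those without Myα5KO replicate 2 (-1.56) or 3 (-1.51) and in DESeq2. Alox15 was at 8.18, 48.9 and 31.8 CPM against 7.77, 3.69 and 7.47 CPM (-2.24, SE 0.45, adjusted p = 0.00832), and its value without ITGA5 fl/fl replicate 2 was -1.68. The lectin gene Clec10a rose from 52.7 to 68.3 CPM (0.37, adjusted p = 0.0359), kept only without ITGA5 fl/fl replicate 3 or Myα5KO replicate 2, and the mannose receptor gene Mrc1 was at 953 and 878 CPM (-0.12, adjusted p = 0.418).

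Of 11 other genes of the IL-10 family and its class of receptors, 2 passed the filter and 0 were called by edgeR or DESeq2, with 1 (Il20rb, 3.55 and 2.33 CPM) at an unadjusted p under 0.05. Il22, Il24, Ifnl2 and Ifnl3 had no count in any library. Il19 was at 0.125 and 0.159 CPM.

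Relatives of the response genes were taken as a last list of 14, of which 13 were tested, 3 fell (5.19% over all tested genes), 3 rose (3.56%) and 7 were not called (median 0.10). The relatives of Bcl3 that fell were Nfkbia (1103 to 881 CPM, -0.32, adjusted p = 0.0359), Nfkbib (158 to 117 CPM, -0.43, adjusted p = 0.00508) and Nfkb2 (375 to 287 CPM, -0.39, adjusted p = 0.00421). They encode the cytoplasmic inhibitors IκBα and IκBβ and the p52 subunit. Nfkbib and Nfkb2 kept their calls in all 6 fits that left out 1 library, and Nfkbia in 2, those without ITGA5 fl/fl replicate 1 or Myα5KO replicate 3. The leucine zipper genes Dbp (4.05 to 8.05 CPM, 1.00, adjusted p = 0.00219) and Tef (38.6 to 50 CPM, 0.38, adjusted p = 0.0188), related to Nfil3, rose, as did Dusp1, a phosphatase gene whose product acts on the p38 pathway that controls tristetraprolin (1082 to 1304 CPM, 0.27, adjusted p = 0.0467). Dbp kept its call in all such fits, Tef lost it without ITGA5 fl/fl replicate 2 or 3 or Myα5KO replicate 3, and Dusp1 kept it only without Myα5KO replicate 1. Zfp36l2, a relative of Zfp36, was at 685 and 784 CPM and was not called (0.20, adjusted p = 0.149).

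The genes whose pattern over the 6 libraries lay nearest to that of Il10 were sought among 9314 genes with a mean of at least 100 counts. Predicted, RIKEN and clone symbols had been left out of these. Nearness was the root mean square difference of log2 CPM centred on the mean of each gene. The nearest genes were Csf3 (0.109), Jdp2 (0.128), Nrg1 (0.132), Cxcl1 (0.135) and Fosl1 (0.148). Their fold changes were -1.09, -1.09, -1.11, -0.97 and -1.12 in that order. Jdp2 was far more abundant than Csf3, Nrg1 and Fosl1, at 518, 526 and 537 CPM in ITGA5 fl/fl and 244, 269 and 231 CPM in Myα5KO replicates 1, 2 and 3. Since all 5 were picked for likeness to Il10 across both groups, their own differences were fixed by that choice and are given as a description. The study also reported Csf3 and Cxcl1 (by PCR array) and Nrg1 (by RNA-seq) as lower in Myα5KO infarct macrophages.

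Cells other than macrophages can make IL-10, and their markers were summed per library. The counts of called markers stand beside 5.19% lower and 3.56% higher among all tested genes. Markers of B cells were higher in Myα5KO (119 to 164 CPM in ITGA5 fl/fl, 166 to 257 in Myα5KO, 2 of 8 called higher), as were those of granulocytes (31.8 to 47.9 against 63.7 to 186 CPM, 5 of 6 tested called higher). The granulocyte gene Retnlg lay in the opposite direction without a call (4.81 and 3.1 CPM, edgeR adjusted p = 0.311). Cxcr2 (0.445 and 0.39 CPM) and Ly6g were too low to test. Markers of T and NK cells were at 21.3 to 24.6 and 25.1 to 26 CPM (0 of 4 tested called), mostly from Cd4, which some myeloid cells also express. Plasma cell markers (95 to 104 and 94.5 to 119 CPM, 0 of 4 tested called), dendritic cell markers (93.1 to 121 and 113 to 125 CPM, 1 of 7 higher), and mast cell and basophil markers (3.70 to 6.70 and 5.24 to 7.94 CPM, 0 of 1 tested called) overlapped between groups. None of these sums was lower in all Myα5KO libraries than in the controls.

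Some other marker sums were lower in Myα5KO than in ITGA5 fl/fl libraries. Markers of body cavity macrophages, which overlap the IL-4 response list in Alox15, were at 74.5 to 251 CPM in ITGA5 fl/fl and 46.8 to 65.7 in Myα5KO (4 of 6 tested called lower). Of these markers, Gata6 (3.72 and 3.26 CPM, edgeR adjusted p = 0.575) and Icam2 (18.5 and 12.5 CPM, adjusted p = 0.0619) were not called. Rarb was too low to test (0.44 and 0.408 CPM). Serpinb2 was at 14.3, 83.3 and 68.8 CPM in ITGA5 fl/fl and at 11.8, 7.38 and 11.4 CPM in Myα5KO replicates 1, 2 and 3. Fibroblast markers were at 1618 to 1897 and 1209 to 1578 CPM (1 of 7 lower) and cardiomyocyte markers at 21.1 to 23.2 and 12.7 to 16.8 CPM (3 of 6 tested lower). Endothelial markers overlapped (265 to 295 and 288 to 329.8 CPM, 1 of 6 higher). Among all tested genes, 5.19% were called lower and 3.56% higher. With scaling to library totals, the fibroblast sums overlapped (1582 to 1835 and 1248 to 1625 CPM, exact permutation p = 0.2) and the endothelial sums were apart and higher in Myα5KO (257 to 285 and 297 to 340.5 CPM, exact permutation p = 0.1), while no other sum changed between overlapping and apart. The summed macrophage markers were at 12738 to 13374 and 9531 to 9912 CPM, and without Lyz2 at 5665 to 6007 and 5461 to 5955 CPM, with 1 of 8 called lower (Lyz2) and 1 higher (Fcgr1). No list had a marker at 0 in all libraries, and every list that did not overlap had an exact two-sided permutation p of 0.1 (0.157 adjusted over 11 lists), the smallest possible here. Their part in the changes of Il10, Bcl3 and Sbno2 was not tested.

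**Figure D5:**
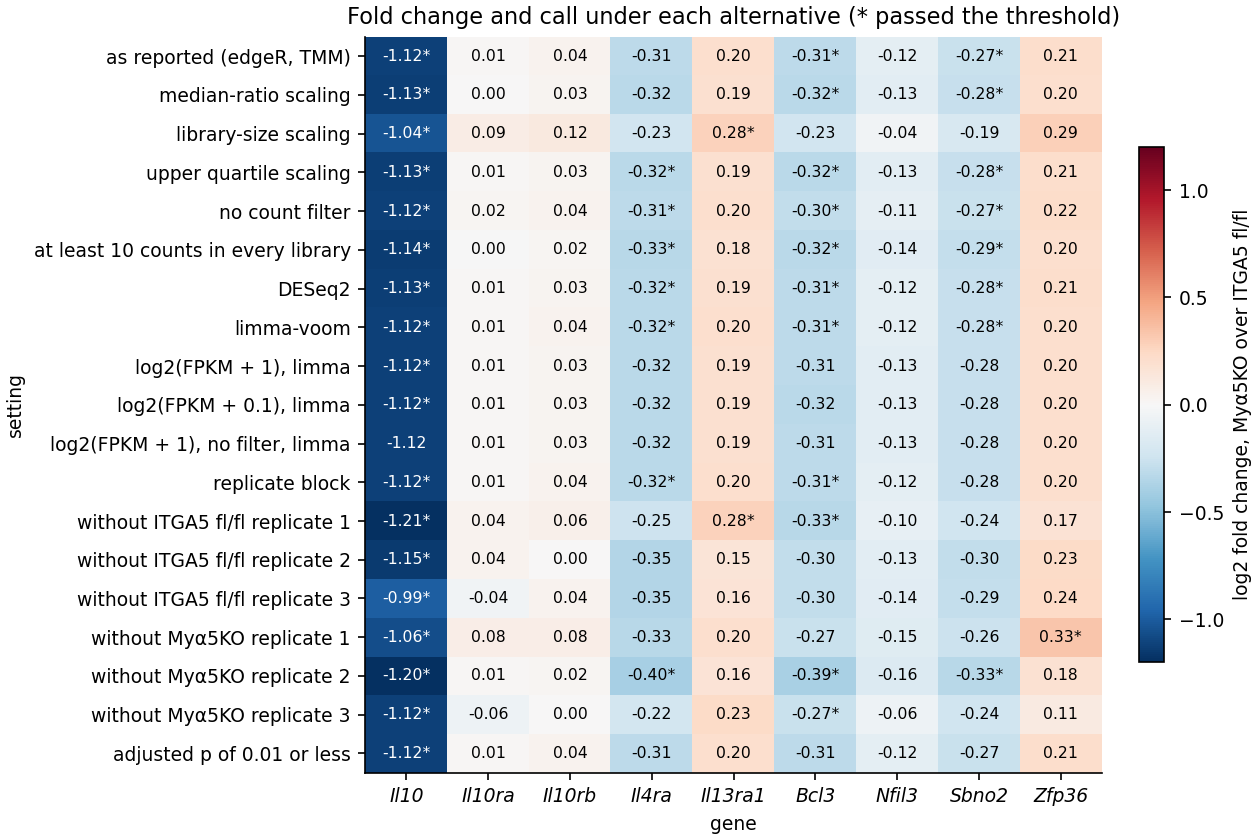
Log2 fold change of each of the 9 genes (columns) under the reported fit and 18 alternatives (rows), on a colour scale from blue (lower in Myα5KO) to red (higher), with an asterisk where the gene passed that threshold. Il10 is dark blue in every row, from -1.21 to -0.99, with an asterisk in 17 of the 18 alternatives, whereas asterisks for Bcl3 and Sbno2 come and go.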

How the data were processed

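The 6 libraries were made from polyadenylated RNA and assigned to groups by their titles. Per the methods of the study, the authors filtered the reads, aligned them to the mouse genome (GRCm38) with TopHat2 2.0.9 and counted reads per gene with HTSeq 0.6.1. The deposited counts are whole reads per gene without normalization. The deposited FPKM values equal count over gene length and a constant per library. How multi-mapped reads and strand were treated is not given in the sources used here, so counts of overlapping genes are uncertain.

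Differences in counts were assessed in R 4.3.3 by the edgeR 4.0.16 quasi-likelihood method (TMM scaling, expression filter with a minimum count of 10 and a minimum total of 15, no covariate), and p-values were adjusted over all tested genes by the Benjamini-Hochberg method. Fold changes are given as log2 of Myα5KO over control, and CPM are counts scaled with the TMM factors. DESeq2 1.42.0 (the study's methods name an earlier version of DESeq2 and state no design), limma 3.58.1 with voom or on log2(FPKM + 1) and log2(FPKM + 0.1) (genes reaching an FPKM of 1 in 3 or more libraries), other scalings and filters, a replicate block, each library left out and an adjusted p of 0.01 were alternatives. Ratios and marker sums were compared with exact two-sided permutation tests in scipy 1.17.1. Scripts were tested on simulated data. Totals per library set the precision, which covers counting error only, and p-values measure the spread between hearts. In edgeR the spread of each gene was moderated toward that of other genes (9.5 prior degrees of freedom). Its p-values and intervals thus do not rest on the 6 hearts' values of that gene alone. Replicates of a group differed by more than sampling noise (chi-square of at least 5.61 per degree of freedom).

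Promoters came from RefSeq (GRCm38.p6) and 3′ UTRs and transcript lengths from GENCODE M21 (GRCm38). The genes and lists were chosen with earlier results of these data known. Named were the 9 genes, Itga5 and Lyz2, and from each further list every gene that was called and at most 4 others with the highest mean FPKM, besides the 5 genes nearest to Il10. An item that this rule names is not reported here. Markers named, Il13, and the genes with no count were chosen after their values were seen.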

Additional observations from a re-analysis of the deposited data

How the results depend on the processing

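Il10 was called lower in 17 of 18 alternatives, and missed the threshold only on log2(FPKM + 1) without a filter (-1.12, limma adjusted p = 0.0614), where 10 genes were called in all, with 0 lower genes in the set and 0 lower and 0 higher genes in the further lists. With log2(FPKM + 1) and a filter, 472 genes were called, 1 of the set lower, and 8 further genes lower and 3 higher, and with log2(FPKM + 0.1) these were 448, 1, 8 and 3. At an adjusted p of 0.01 or less, 470 genes were called, 1 of the set (Il10) lower, and 10 further genes lower and 4 higher. Library-size scaling left 1 gene of the set lower and made 1 higher, and moved the median of all tested genes from 0.01 to 0.10. Leaving out each library in turn gave 616 to 1091 calls, 1 to 4 genes of the set lower and 0 to 1 higher, 10 to 15 further genes lower and 5 to 10 higher, with Il10 between -1.21 and -0.99. Il10ra, between -0.06 and 0.08 in the fits that left out a library, changed sign without a call in 3 alternatives, at -0.00242 with at least 10 counts in every library, at -0.04 without ITGA5 fl/fl replicate 3 and at -0.06 without Myα5KO replicate 3. Deviations of same-numbered libraries from their group means correlated at only 0.051, -0.058 and 0.043. In a principal component analysis, the second component (19.2% of the variance) placed ITGA5 fl/fl replicates 1, 2 and 3 at 16.8, -8.3 and -11.3. Myα5KO replicates 1, 2 and 3 lay at 16.7, 4.7 and -18.5 on it. Whether the replicate number pairs the samples cannot be told from these values. A replicate block gave 1181 calls, Il10 at -1.12, and 3 genes of the set lower, with Il4ra called (-0.32, edgeR adjusted p = 0.0415) and Sbno2 not (-0.28, adjusted p = 0.0503). With the principal transcript length, an alternative added after seeing the data, levels relative to Il10 in ITGA5 fl/fl moved for Il10rb (0.267), Il4ra (0.314), Bcl3 (0.32), Sbno2 (0.399) and Zfp36 (1.84). The cause of each change was not tested. With 3 hearts a group, the 95% interval of Zfp36 reached from -0.01 to 0.44, so its direction was not resolved.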
